A study of Mus musculus with 6 samples.

Results

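The genes described here are 8 Eph receptors and ephrins that take part in placing cells along the crypt of the small intestine: the receptors Ephb2, Ephb3, Ephb4, Epha1 and Epha2, and their ligands Efnb1, Efnb2 and Efna1. They were chosen by gene symbol, with earlier results of these data known. They are 8 of 22 Eph and ephrin genes in a deposited table of 55487 genes, and all 8 passed the filter that left 15563 genes for testing. The study sequenced RNA from whole small intestine of C57BL/6 mice in 3 wild-type libraries (WT) and 3 libraries of genotype Lgr5-2A-DTR (DTR). DTR mice carry a diphtheria toxin receptor at Lgr5, a gene that marks stem cells of the crypt base, so the toxin ablates Lgr5-positive cells. WT mice got the toxin as well: every mouse was an adult over 8 weeks old, was injected daily for 4 days at 20 µg/kg, and was harvested 6 h after the last dose. The comparison asks how the tissue's transcripts differ once Lgr5-positive cells are ablated.

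Eph receptors are receptor tyrosine kinases whose ligands, the ephrins, sit on the membrane of the neighbouring cell, so signalling needs contact and runs into both cells. Ephrin-A ligands are held by a lipid anchor and ephrin-B ligands by a membrane-spanning segment with its own signalling tail. In the intestine, Wnt signalling through β-catenin and TCF factors drives Ephb2 and Ephb3 near the crypt base, ephrin-B ligands are more abundant towards the villus, and the repulsion between cells with much receptor and cells with much ligand keeps the compartments apart. In mice that lack Ephb3, Paneth cells leave the crypt base.

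Lgr5 itself was counted 315, 254 and 229 times in WT replicates 1, 2 and 3, and 22, 0 and 34 times in the DTR libraries in the same order. The libraries held 61404574 to 76596766 reads in genes. The groups also differed in Xist, the long RNA of X chromosome inactivation, with 16 to 38 reads in WT and 22432 to 24279 reads in DTR, so effects of genotype and of sex cannot be told apart. Markers of some other cells differed between the groups too. For scale, 18.3% of all 15563 tested genes passed in limma, 9.54% as higher and 8.74% as lower. Of 11 Paneth cell markers 8 fell and none rose in limma (0 rose at an unadjusted p below 0.05 or in voom), with a summed level of 2597 to 3994 RPKM in WT and 594 to 766 RPKM in DTR. RPKM is reads scaled to gene length and library size, so levels of different genes can be set side by side, subject to the deposited gene lengths. Of 10 cycling progenitor markers 5 rose, with sums of 71.9 to 78.2 and 115 to 176 RPKM. Of 10 leukocyte markers 5 fell (101.9 to 141 against 43.9 to 55.3 RPKM), as did all 5 tested tuft cell markers of 7 and 3 of 7 enteroendocrine markers. The sums overlapped between groups for crypt base, villus enterocyte, epithelial, goblet, endothelial, lymphatic, fibroblast and muscle, and neuron and glia markers. In those lists 1 gene rose and 1 fell of 7 crypt base markers tested, 5 fell of 12 villus markers, 2 rose and 1 fell of 9 epithelial markers and of 5 lymphatic markers alike, and 1 fell of 7 goblet markers. The shares called, 28.6% of crypt base and 14.3% of goblet markers, rest on 7 genes each, beside 18.3% of all tested genes. They are no result about those lists. Of 13 fibroblast and muscle markers 0 passed in limma (2 at an unadjusted p below 0.05, 0 in voom), as did 0 of 6 neuron and glia markers (1 at an unadjusted p below 0.05, 0 in voom). Apart from Lgr5 in DTR replicate 2, no marker of any list was at 0 reads in any library. In bulk tissue, fewer cells of a type and less RNA per cell cannot be told apart, and the part of these shifts in the results below was not tested.

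Ephb2, Ephb3, Epha2 and Efna1 rose in DTR and Epha1 fell, while Ephb4, Efnb1 and Efnb2 did not pass. That is 4 of the 8 genes higher and 1 lower in limma, a linear model over all genes (Benjamini-Hochberg adjusted p below 0.05), with a median log2 change of 0.85. Across all 15563 tested genes 18.3% passed, 9.54% as higher and 8.74% as lower, and the median log2 change was 0.031. Because the 8 genes were chosen with earlier results known, this contrast is only a description. The values of the groups did not overlap for these same 5 genes, with DTR above WT in 4 and below in 1, beside 47.7% of all tested genes (25.1% above, 22.6% below). With 3 against 3 libraries the two-sided exact permutation test on mean RPKM cannot go below p = 0.1, the value it gave for each of these 5 genes. It gave p = 0.9 for Ephb4, p = 0.7 for Efnb1 and p = 0.2 for Efnb2 by the same exact test. The calls were near the threshold and changed with the library left out. Without WT replicate 1, 2 or 3, or without DTR replicate 3, 0 of the 8 genes passed (smallest limma adjusted p between 0.0691 and 0.102). Without DTR replicate 2 only Ephb2 and Efna1 passed, and without DTR replicate 1 all 5 did, as did Efnb2. This was not particular to the 8 genes. Over all tested genes 2845 passed in the main fit, and 152, 157 and 207 without WT replicate 1, 2 or 3. Without DTR replicate 1, 2 or 3 the number was 5605, 2405 and 1010. All 5 kept their direction with any library left out.

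The promoters of the 5 genes that changed are shown because these genes changed in the same comparison, 4 upwards and Epha1 downwards. Each is 300 bases, from 250 before to 50 after the start annotated by RefSeq on build GRCm38.p6, read 5′ to 3′ on the gene's own strand. Capitals mark matches to any of 5 motifs searched on both strands: the TCF/LEF core CTTTGAT, the cyclic AMP response element TGACGTCA, the AP-1 motif TGANTCA, the hypoxia response core ACGTG and the glucocorticoid response element. These motifs were chosen after the sequences had been seen.
Ephb2 (chr4:136835963-136836262, minus strand): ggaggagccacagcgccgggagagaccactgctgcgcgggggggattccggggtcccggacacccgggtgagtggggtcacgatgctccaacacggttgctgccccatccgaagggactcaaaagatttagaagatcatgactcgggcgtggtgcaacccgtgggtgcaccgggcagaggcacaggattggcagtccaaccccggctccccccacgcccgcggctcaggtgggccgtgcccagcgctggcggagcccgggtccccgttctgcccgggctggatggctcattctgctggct
Ephb3 (chr16:21204545-21204844, plus strand): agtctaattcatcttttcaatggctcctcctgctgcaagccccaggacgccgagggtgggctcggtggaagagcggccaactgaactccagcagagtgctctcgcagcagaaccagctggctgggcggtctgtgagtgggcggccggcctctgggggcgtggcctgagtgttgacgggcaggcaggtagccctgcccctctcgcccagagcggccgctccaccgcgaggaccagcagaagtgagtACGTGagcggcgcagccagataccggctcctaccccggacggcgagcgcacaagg
Epha2 (chr4:141300971-141301270, plus strand): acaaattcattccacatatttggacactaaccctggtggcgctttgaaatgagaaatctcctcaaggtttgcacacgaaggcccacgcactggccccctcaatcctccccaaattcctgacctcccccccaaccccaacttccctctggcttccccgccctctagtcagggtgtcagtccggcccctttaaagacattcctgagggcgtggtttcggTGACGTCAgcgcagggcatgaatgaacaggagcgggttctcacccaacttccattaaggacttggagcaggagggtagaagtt
Efna1 (chr3:89280902-89281201, minus strand): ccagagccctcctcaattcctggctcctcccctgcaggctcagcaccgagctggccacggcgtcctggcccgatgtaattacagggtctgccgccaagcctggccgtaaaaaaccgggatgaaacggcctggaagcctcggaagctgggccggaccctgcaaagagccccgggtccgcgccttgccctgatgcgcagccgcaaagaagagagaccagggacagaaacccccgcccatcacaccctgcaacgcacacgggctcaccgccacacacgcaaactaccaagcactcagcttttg
Epha1 (chr6:42373219-42373518, minus strand): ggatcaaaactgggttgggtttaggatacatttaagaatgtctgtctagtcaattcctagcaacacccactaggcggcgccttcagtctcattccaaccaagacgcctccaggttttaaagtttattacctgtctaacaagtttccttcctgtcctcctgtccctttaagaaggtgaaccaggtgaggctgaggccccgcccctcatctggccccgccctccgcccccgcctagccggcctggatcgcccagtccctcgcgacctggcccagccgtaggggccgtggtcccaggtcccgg

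All 8 genes had an entry in the RefSeq table, with 9 windows in all, since Efna1 has 2 starts there. The window shown for Efna1 is the one that contains the gene's 5′ end in GENCODE M21. Across the 9 windows there were 2 matches. The cyclic AMP response element lay 33 bases before the start of Epha2, and 1.79% of 32851 promoter windows hold that motif. The hypoxia core, searched only as ACGTG, began 5 bases before the start of Ephb3 and ended next to it. Of all windows 19.6% hold ACGTG. Other forms of this core were not searched, so their absence from the other windows is not shown. The TCF/LEF core, present in 3.73% of all windows, AP-1 (7.81%) and the glucocorticoid motif (0.475%) had no match in these 9 windows, which says only that those letters are absent from these stretches.

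Ephb2 and Ephb3, the receptors of the crypt base, were both higher in DTR. Ephb2 (ENSMUSG00000028664.14, mm10, chromosome 4, 136647539 to 136835988, minus strand) stood at 0.969, 0.847 and 0.926 RPKM in WT replicates 1, 2 and 3, and at 2.19, 1.41 and 2.67 RPKM in DTR replicates 1, 2 and 3. The WT values lay close together, and the lowest DTR value, in replicate 2, was above all of them. The mean was 0.914 ± 0.0623 RPKM (SD, n = 3) in WT and 2.29-fold higher, 2.09 ± 0.637 RPKM (SD, n = 3), in DTR. Its log2 change was 1.15 (SE 0.27; limma, Benjamini-Hochberg adjusted p = 0.0366).

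Ephb3 (ENSMUSG00000005958.15, chromosome 16, 21204755 to 21223305, plus strand) had the lowest mean level of the 8 genes in both groups. Its read counts were 287, 199 and 156 in the WT libraries, in replicate order, and 405, 667 and 762 in the DTR libraries. That corresponds to 0.584, 0.490 and 0.310 RPKM in WT and 0.946, 1.63 and 1.85 RPKM in DTR. DTR replicate 1 was the nearest to WT, and the groups did not overlap. The mean rose 3.20-fold, from 0.461 ± 0.139 (SD, n = 3) to 1.47 ± 0.471 RPKM (SD, n = 3). On the log2 scale the change was 1.67 with an SE of 0.37 (limma, adjusted p = 0.0323). The increase of Ephb3, which Paneth cells carry in mouse, stood beside a fall in Paneth cell markers, among them the lysozyme gene Lyz1 (602.6 to 137 RPKM in mean level) and the alpha-defensin gene Defa24 (2119 to 351 RPKM).

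Ephb4, the third B-type receptor and in blood vessels the marker of veins, showed no shift between groups. Its levels were 4.75, 5.19 and 3.75 RPKM in WT replicates 1, 2 and 3, and 5.71, 3.46 and 4.99 RPKM in DTR replicates 1, 2 and 3. The DTR values reached both above and below the WT values. The log2 change was 0.032 with a 95% interval of -0.53 to 0.59 (limma adjusted p = 0.931), so a rise as large as those fitted for Ephb2 and Ephb3 lay outside this interval. The 13 tested endothelial markers had a median log2 change of -0.013 and 0 passed in limma, against 3 at an unadjusted p below 0.05 and 1 in voom. Their summed level was 11.7 to 18.7 RPKM in WT and 11.8 to 18.8 RPKM in DTR. Ephb4 (chromosome 5, 137350109 to 137378669, plus strand) shares 33 bases with Zan on the opposite strand, which had at most 349 reads in a library.

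**Figure D1:**
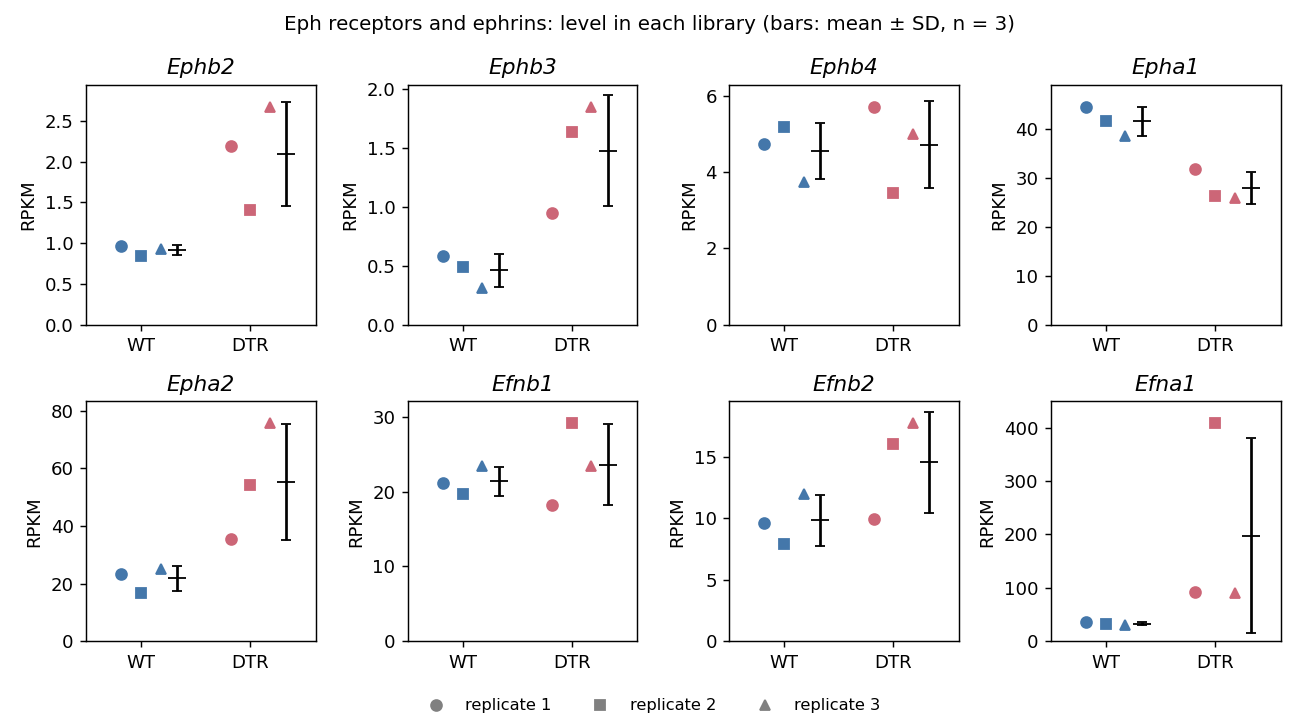
Level of each of the 8 genes in RPKM (vertical axes, each starting at 0) in the WT and DTR libraries, with marker shape for the replicate and bars for mean ± SD (n = 3). Ephb2, Ephb3, Epha2 and Efna1 lie higher in every DTR library than in any WT library, Epha1 lies lower, and the other 3 genes overlap; Efna1 in DTR replicate 2 stands at 408 RPKM.

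The B-type ligands did not pass. Efnb1, which encodes ephrin-B1 and lies on the X chromosome (99136130 to 99148991, plus strand), stood at 21.1, 19.6 and 23.4 RPKM in WT replicates 1, 2 and 3. In DTR replicates 1, 2 and 3 it stood at 18.3, 29.1 and 23.4 RPKM, so that the groups overlapped fully. Its log2 change was 0.12 with a 95% interval of -0.33 to 0.58 (limma adjusted p = 0.660), although the groups differed in sex pattern. Efnb2, which encodes ephrin-B2 and in blood vessels marks arteries (chromosome 8, 8617434 to 8661242, minus strand), stood at 9.60, 7.89 and 11.98 RPKM in WT and at 9.92, 16.1 and 17.7 RPKM in DTR. DTR replicate 1 lay within the WT range and the other DTR libraries above it. The log2 change of 0.55 had a 95% interval of -0.09 to 1.18 (limma adjusted p = 0.174), and without DTR replicate 1 it was 0.80 and passed (adjusted p = 0.0311).

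Relative to the B-type ligands, Ephb2 and Ephb3 stood higher in DTR, but all 3 B-type receptors together did not stand apart. The summed level of Ephb2 and Ephb3 was 0.0506, 0.0486 and 0.0349 of that of Efnb1 and Efnb2 in WT replicates 1, 2 and 3, and 0.111, 0.0673 and 0.110 of it in DTR replicates 1, 2 and 3. With Ephb4, the B-type receptor of highest RPKM, added to the sum, the ratio was 0.205, 0.237 and 0.141 in WT and 0.314, 0.144 and 0.231 in DTR, and the groups overlapped. Transcripts of both ligands thus exceeded those of the 3 receptors by 4.21-fold to 7.10-fold in WT and by 3.18-fold to 6.95-fold in DTR. The ratio of Ephb3 to Ephb2 overlapped between groups, at 0.335 to 0.603 in WT and 0.431 to 1.16 in DTR. Efnb2 relative to Efnb1 was 0.402 to 0.511 in WT and 0.543 to 0.756 in DTR, with no overlap. These ratios are descriptions and were given no test. The rank of Ephb4 above Ephb2 in DTR rests on the deposited gene lengths, 12608 bases for Ephb2 and 4640 for Ephb4. In reads Ephb2 exceeded Ephb4 in every DTR library (1782, 1094 and 2093 against 1710, 989 and 1438). In every WT library Ephb2 was below Ephb4 (904, 653 and 885 against 1629, 1473 and 1320 reads).

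The A-type genes changed in opposite directions: the ligand gene Efna1 and the receptor gene Epha2 rose and the receptor gene Epha1 fell. Ephrin-A1, the product of Efna1, is a ligand of EphA2, a receptor of epithelial cells. Efna1 (ENSMUSG00000027954.9, chromosome 3, 89271733 to 89281142, minus strand) stood at 35.4, 32.8 and 30.4 RPKM in WT replicates 1, 2 and 3, and at 92.7, 408 and 91.2 RPKM in DTR replicates 1, 2 and 3. Every DTR library was above every WT library, and DTR replicate 2 was more than 4 times as high as the other DTR libraries. The mean went from 32.9 ± 2.54 (SD, n = 3) to 197 ± 183 RPKM (SD, n = 3), a 6.00-fold difference of means that rests in large part on that library. The log2 change was 2.20 (SE 0.57; limma adjusted p = 0.0446), and it was 1.49 without DTR replicate 2 (adjusted p = 0.00554).

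Epha2 (ENSMUSG00000006445.3, chromosome 4, 141301240 to 141329384, plus strand) stood at 23.4, 16.8 and 25.2 RPKM in WT and at 35.4, 54.4 and 75.7 RPKM in DTR. The DTR values were spread widely, with replicate 1 the lowest, but all exceeded WT. Its mean rose 2.53-fold, from 21.8 ± 4.41 (SD, n = 3) to 55.2 ± 20.2 RPKM (SD, n = 3), and its log2 change was 1.29 with an SE of 0.30 (limma, adjusted p = 0.0353). Epha1 (ENSMUSG00000029859.6, chromosome 6, 42358487 to 42373268, minus strand), whose product is also found in epithelia and binds ephrin-A1, fell from 44.7, 41.7 and 38.7 RPKM in WT to 31.8, 26.3 and 25.9 RPKM in DTR. The groups were apart and each was tight, with a mean of 41.7 ± 2.99 RPKM (SD, n = 3) against 28.0 ± 3.33 RPKM (SD, n = 3). The log2 change was -0.58 (SE 0.13; limma adjusted p = 0.0327). The last 1727 bases of Epha1 overlap Zyx on the opposite strand, and since the strand setting of the counting is not given in the sources used here, reads from that stretch cannot be assigned to either gene. Zyx, which encodes the focal adhesion protein zyxin, did not pass, at a log2 change of -0.42 (adjusted p = 0.128 in limma).

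The A-type receptors changed places in order of level. Epha2 was 0.525, 0.403 and 0.651 of Epha1 in WT replicates 1, 2 and 3, and 1.11, 2.07 and 2.92 times Epha1 in DTR replicates 1, 2 and 3. Epha1 was the more abundant receptor in all 3 WT libraries and Epha2 in all 3 DTR libraries. Efna1 relative to the sum of both receptors was 0.476 to 0.561 in WT and 0.898 to 5.06 in DTR. The ratio was lowest among DTR libraries in replicate 3, where Epha2 was highest.

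**Figure D2:**
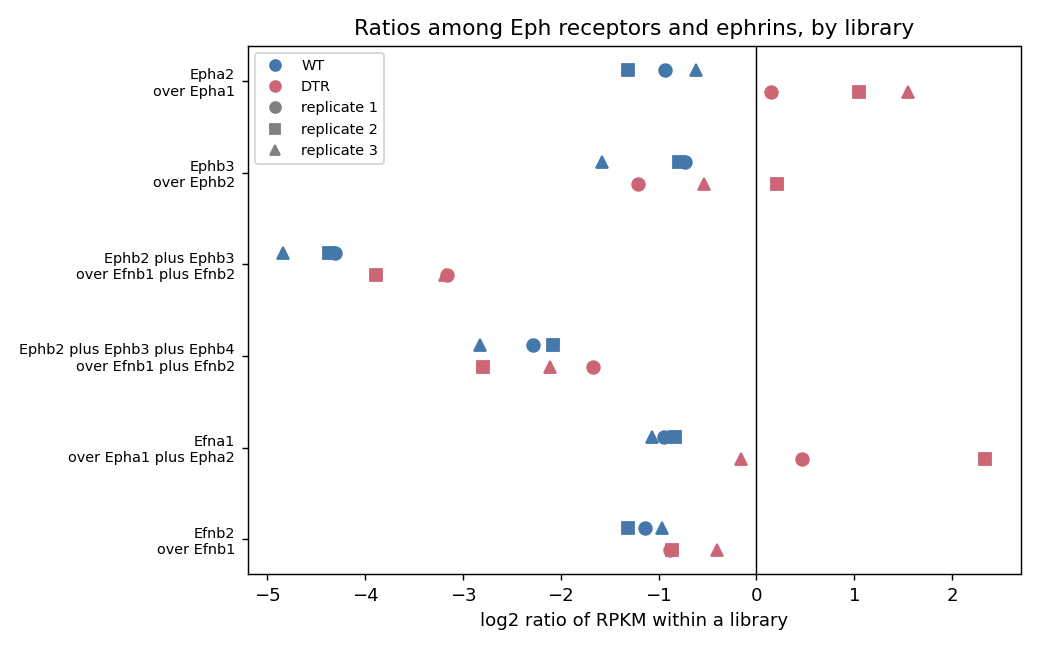
log2 ratios of RPKM within each library (horizontal axis), for 6 pairs or sums of genes, with colour for the group and marker shape for the replicate. Epha2 over Epha1 lies below 0 in all WT libraries and above 0 in all DTR libraries, and Ephb3 over Ephb2 and the ratio that includes Ephb4 overlap between groups.

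Taken by RPKM, which depends on the deposited gene lengths, Epha1 came first in WT at a mean of 41.7 RPKM. It was followed by Efna1, Epha2, Efnb1, Efnb2, Ephb4, Ephb2 and Ephb3. Neighbours in that order had ranges that did not overlap, except Epha2 (16.8 to 25.2 RPKM) and Efnb1 (19.6 to 23.4 RPKM). In DTR the order was Efna1, Epha2, Epha1, Efnb1, Efnb2, Ephb4, Ephb2 and Ephb3. There Epha1 (25.9 to 31.8 RPKM) overlapped Efnb1 (18.3 to 29.1 RPKM), and Ephb2 (1.41 to 2.67 RPKM) overlapped Ephb3 (0.946 to 1.85 RPKM). Variation among DTR libraries exceeded that among WT libraries for all 8 genes: the SD was 6.82% to 30.2% of the mean in WT and 11.9% to 92.5% in DTR. This was not particular to these genes. Over all tested genes, pairs of libraries correlated at 0.970 to 0.973 within WT and at 0.920 to 0.939 within DTR. The main limma fit used a common spread for both groups of a gene.

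The 5 receptors made up 99.2% to 99.7% of the summed RPKM of all 14 Eph receptor genes in each library, and the 3 ligands made up at most 95.8% of that of 8 ephrin genes in WT and 97.3% to 99.5% in DTR. Epha1 accounted for 59.6%, 63.6% and 55.8% of receptor transcripts in WT replicates 1, 2 and 3, and for 41.6%, 30.1% and 23.2% in DTR replicates 1, 2 and 3. Epha2 went the other way, from 25.6% to 36.3% in WT to 46.2% to 67.9% in DTR. Ephb2 and Ephb3 remained small parts, at 1.29% to 1.34% and 0.447% to 0.779% in WT, and at 1.61% to 2.86% and 1.24% to 1.87% in DTR. Among ligands Efna1 held 44.2% to 51.7% in WT and 67.1% to 89.6% in DTR, while Efnb1 held 30.5% to 34.1% and 6.39% to 17.2%. Summed over the family, receptor transcripts reached 65.6 to 75.0 RPKM in WT and 76.5 to 111 RPKM in DTR, and ephrin transcripts 63.5 to 69.2 RPKM in WT and 124 to 455 RPKM in DTR.

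**Figure D3:**
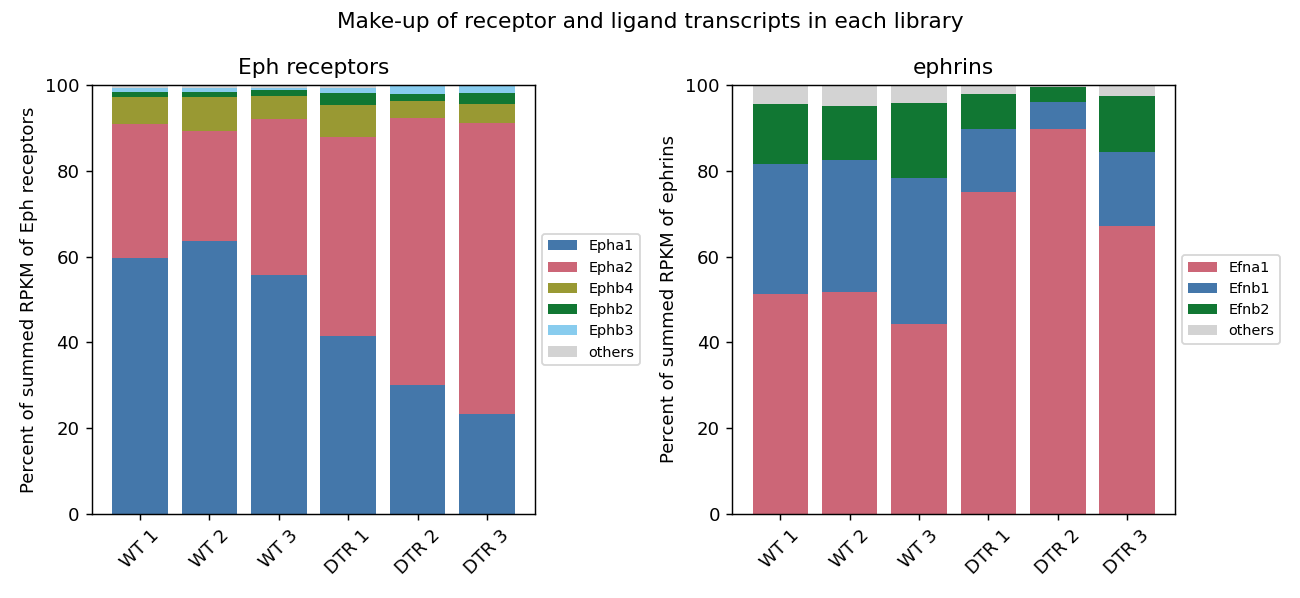
Percent of the summed RPKM of 14 Eph receptor genes (left) and 8 ephrin genes (right) held by each gene in each library, stacked to 100, with the remaining genes in grey. Epha1 is the largest receptor part in the WT bars and Epha2 in the DTR bars, and Efna1 grows from 44.2% to 51.7% of ephrins in WT to 67.1% to 89.6% in DTR.

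**Figure D4:**
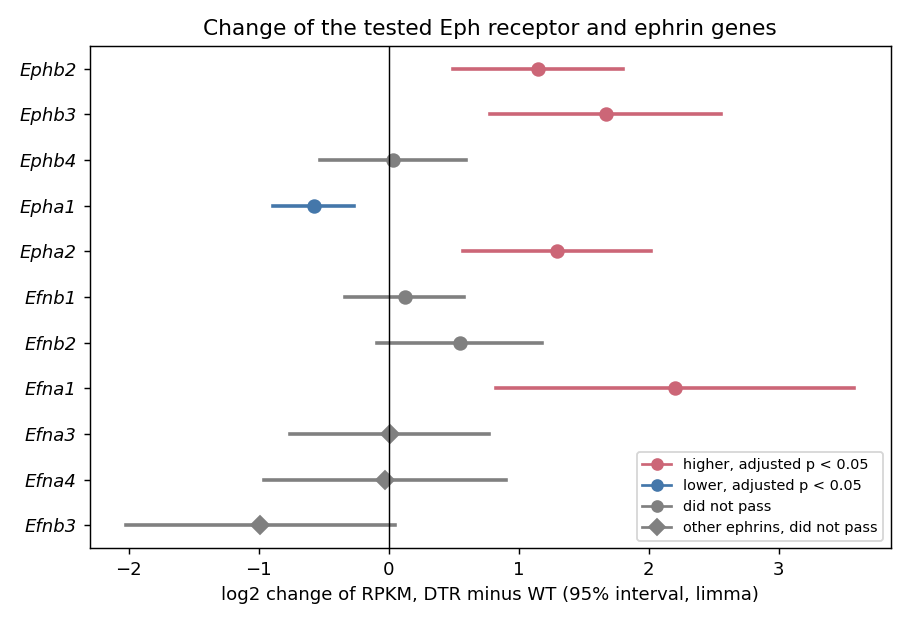
log2 change of RPKM in DTR against WT (horizontal axis) with its 95% interval from limma for the 8 genes (circles) and the 3 other ephrins that could be tested (diamonds), coloured by call. Intervals of Ephb2, Ephb3, Epha2 and Efna1 lie above 0 and that of Epha1 below 0.

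**Figure D5:**
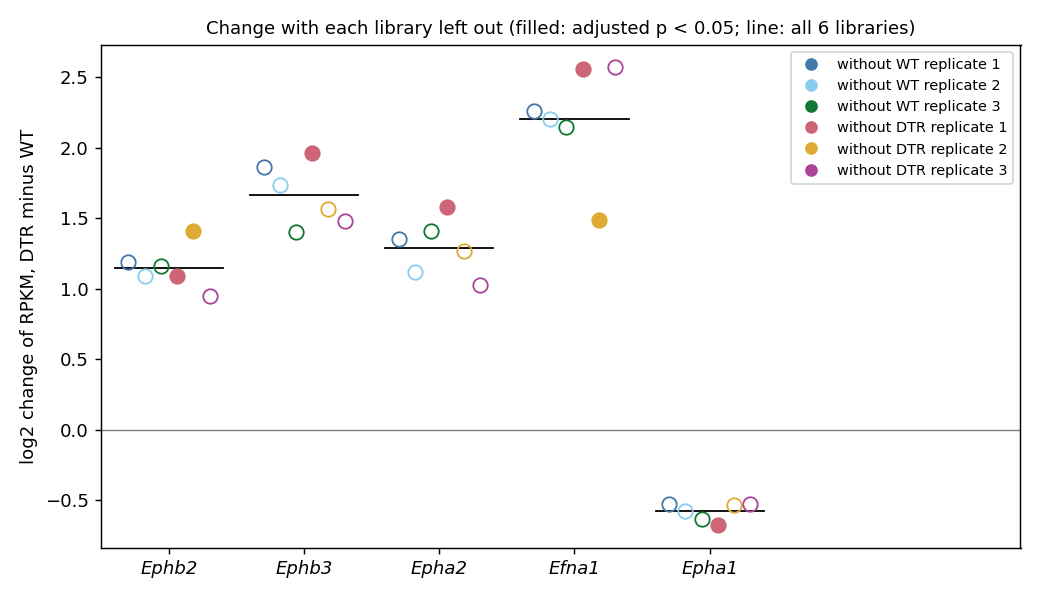
log2 change of RPKM in DTR against WT (vertical axis) for the 5 genes that passed, refitted with each library left out in turn; filled circles passed at an adjusted p of 0.05, open circles did not, and the black line is the value with all 6 libraries. Every circle is on the same side of 0 as the line, and most are open.

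Of the other 14 Eph and ephrin genes, 11 were below the expression filter. None of the other 9 receptors passed the expression filter, nor did Efna2 and Efna5, and the highest level of any of these 11 genes in any library was 0.322 RPKM, for Efna5 in DTR replicate 2. In a limma fit with no filter 0 of these 11 genes passed (smallest adjusted p = 0.137), against 1, Efna2, at an unadjusted p below 0.05. The 3 tested ephrins were not all less abundant than the genes above: Efna4 had a mean of 1.81 RPKM in WT and 1.91 RPKM in DTR, above Ephb3 in both groups and above Ephb2 in WT. Efna3 had a mean of 0.453 RPKM in both groups, and Efnb3 one of 0.527 RPKM in WT and 0.268 RPKM in DTR. Efna3 (log2 change 0.0060, 95% interval -0.76 to 0.77), Efna4 (-0.027, -0.96 to 0.90) and Efnb3 (-0.99, -2.02 to 0.05) did not pass in limma or voom, and none had an unadjusted p below 0.05. Efna3 and Efna4 lie near Efna1 on chromosome 3, on the same strand, with a gap of 32.8 kb between Efna1 and Efna3. Among 18 other tested genes within 100 kb of Efna1, none passed as higher and 2 as lower, Dcst1 (-1.56) and Zbtb7b (-0.60). Of all tested genes 9.54% passed as higher and 8.74% as lower, so these counts are no result about the locus. The log2 changes of the 18 genes ran from -1.56 to 0.42, below the 2.20 of Efna1. The nearest tested gene, Slc50a1, lies 1.16 kb away and did not pass (0.29; adjusted p = 0.156 in limma). Of the genes on either side of Ephb2, the histone demethylase gene Kdm1a rose (0.45, limma adjusted p = 0.0475). The complement gene C1qb did not pass (0.12, limma adjusted p = 0.464). Genes beside members that did not pass were called as well. Pop7, beside Ephb4, rose (0.60, limma adjusted p = 0.0445), and Pja1, beside Efnb1, fell (-0.90, limma adjusted p = 0.0111). The nearest tested genes beside the other members did not pass. These calls are no result about the loci.

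The genes whose profile over the 6 libraries was nearest to that of a changed gene were found among 9834 or 9835 expressed protein-coding genes by the root mean square difference of mean-centred log2 RPKM. Nearest to Ephb2 were the zinc finger gene Zfp609 (0.103) and the mevalonate kinase gene Mvk (0.121). For Ephb3 they were Phf21b (0.153), Zfand2a (0.160) and the integrin subunit gene Itga5 (0.196). Epha2 was nearest to Elmsan1 (0.133), the cytolinker gene Plec (0.142) and the nuclear pore gene Pom121 (0.143), and Epha1 to Uap1 (0.0469), Cnot8 (0.0539) and Syvn1 (0.0542). The profile of Efna1, high in DTR replicate 2, was nearest to those of the stress-induced gene Sesn2 (0.218), the calcium-binding protein gene S100a6 (0.311) and Mgp (0.314). Sesn2 stood at 2.90 to 3.26 RPKM in WT and at 7.01, 27.9 and 6.66 RPKM in DTR replicates 1, 2 and 3, and did not pass (adjusted p = 0.0618 in limma).

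The share of genes acting with the Eph system that passed was near that of all tested genes. Across 6 lists of signalling, turnover, adhesion and Wnt genes, 11 of 99 tested genes rose and 5 fell, together 16.2% beside 18.3% of all tested genes, with a median log2 change of 0.078. Without WT replicate 1, 2 or 3 the number that passed was 0, without DTR replicate 3 it was 6, and without DTR replicate 1 it was 43. Of 24 tested adaptors, exchange factors and kinases of forward signalling, 2 rose, namely the adaptor gene Nck2 (log2 change 0.80) and the Ras and Rab5 effector gene Rin1 (2.00). The Rac exchange factor gene Tiam2 (-1.18) and the Src family kinase gene Yes1 (-0.58) fell, so that 16.7% of this list passed, near the 18.3% of all tested genes. Nck2 stood at 4.83, 4.97 and 5.79 RPKM in WT replicates 1, 2 and 3, and at 8.69, 9.54 and 8.86 RPKM in DTR replicates 1, 2 and 3, well apart.

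None of 10 tested partners of ephrin-B reverse signalling passed in limma, against 2 at an unadjusted p below 0.05 and 1 in voom, both counts of higher genes; the smallest adjusted p was that of Pard6b (log2 change 1.77, adjusted p = 0.0647). Of 13 genes of cleavage and turnover, the ubiquitin ligase gene Cblb (1.96) and the phosphatase gene Ptpn1 (0.68) rose and the ubiquitin ligase gene Cbl (-0.66) fell. Adam10, a protease that cuts ephrins and E-cadherin, had a log2 change of -0.27 that did not pass (adjusted p = 0.151 in limma). Of 13 adhesion genes the desmosome gene Pkp2 (0.87) rose and Dsc2 (-0.66), another desmosome gene, fell. The shares called, 23.1% of the turnover list and 15.4% of the adhesion list, rest on 13 genes each, beside 18.3% of all tested genes. The E-cadherin gene Cdh1 stood at 95.6 to 113 RPKM in WT and 119.7 to 261 RPKM in DTR and did not pass (log2 change 0.91; limma adjusted p = 0.0762).

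Among 26 tested genes of the Wnt and TCF list, 4 rose and 1 fell, with a median log2 change of 0.38. That is 19.2% of the list, near the 18.3% of all tested genes, and is no result about the list. Tcf7l2, which encodes the main TCF factor of the intestinal epithelium, stood at 3.97, 3.58 and 4.55 RPKM in WT and at 6.21, 9.84 and 7.71 RPKM in DTR with no overlap (log2 change 0.95, SE 0.20; adjusted p = 0.0300 in limma). The transcription factor genes Myc (1.11) and Sox9 (1.69), both known targets of this pathway, and the chloride cotransporter gene Slc12a2 (0.73) also rose, and the receptor gene Tnfrsf19 fell (-1.39); Slc12a2 and Tnfrsf19 also stand in the crypt base list. Ctnnb1, which encodes β-catenin, had a log2 change of -0.40 (limma adjusted p = 0.0853) and the Wnt feedback gene Axin2 overlapped between groups, at 2.60 to 4.93 RPKM in WT and 1.04 to 3.52 RPKM in DTR; neither passed. Ephb2 and Ephb3 are not members of this list.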

How the data were processed

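Per the labels' protocols, whole small intestine was lysed in Trizol and its RNA isolated by RNeasy kit. STAR, featureCounts (Subread), edgeR, FastQC and MultiQC are named in the submitters' processing notes, with build mm10. What version of each was used, and with what strand setting and annotation, is not given in the sources used here. The deposited values are log2 RPKM per gene, and a second deposited table gives library totals and normalization factors, which are ratios that rescale those totals. Reversing the log transform, with 0.25 as the prior count in proportion to library size, returned whole reads for 100% of values (within 1e-06), and these summed to the deposited totals; printed reads and RPKM come from them. The description of the sample titled WT2 names WT1, so columns were matched by title. No replicate pair looked like a repeat (chi-square per gene of 69.1 to 149 within WT and 195 to 396 within DTR). The labels do not say that libraries are separate mice, so p-values reflect only the spread among these samples, which may be technical.

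The 15563 genes whose mean log2 RPKM exceeded -2 were fitted by limma 3.58.1 (R 4.3.3) (variance trend, two-sided, Benjamini-Hochberg over all of them, threshold 0.05). Fold changes in log2 are on the deposited scale with its prior count; intervals are 95% intervals of that fit. Positions are from GENCODE M21, where 55394 of 55487 IDs matched, and are 1-based. The members and gene lists (8 of pathway genes, 13 of markers) were chosen with earlier results of these data known. Xist, Tnfrsf19, Adam10, Axin2, Zyx, Zan, Efna2, Efna5 and the genes near Efna1, Ephb2, Ephb4 and Efnb1 were named after their values were seen. By rule, the 8 genes, other tested ephrins and up to 4 genes of each pathway list by smallest p are named. The rule also picks up to 3 genes of each marker list by level and 3 genes of nearest profile per changed gene. Some genes that this rule picks, and 1 of the pathway lists, are left out of the text. The alternatives tried were a replicate block, array weights, no variance trend, autosomes only, quantile normalization, median centring, another filter (none, or at 0), another pseudocount (0.1 or 1), leaving out each library and, chosen after the data were seen, voom on the recovered reads.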

Additional observations from a re-analysis of the deposited data

How the results depend on the processing

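Directions held for the 5 changed genes under all alternatives run, while calls did not. Efna1 was lost with no filter (adjusted p = 0.0501) and without a variance trend, Epha1 with quantile normalization and without a variance trend, and each of the 5 without WT replicate 1, 2 or 3 or DTR replicate 3. The number of genes changed was 2845, but 4862 with array weights, and 152 to 5605 with a library left out. The number of the 8 genes that rose, 4, ran from 0 to 5 with a library left out, the 5 including Efnb2 without DTR replicate 1. The number that fell, 1, was 0 with quantile normalization and 0 without a variance trend, and ran from 0 to 1. Genes of Eph signalling changed numbered 16, 37 with array weights and 0 to 43 with a library left out. Among genes that did not pass, Ephb4 turned to -0.012 with quantile normalization and ranged from -0.12 to 0.24, and Efnb1 from -0.044 to 0.29, with a library left out. Autosomes alone and voom each called the same 5 genes. Ephb3 lay below a filter at 0 and could not be fitted there. edgeR and DESeq2 on recovered reads were not run, because the deposited unit is log2 RPKM.

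The labels give no pairing by replicate number. Deviations of same-numbered WT and DTR libraries correlated at -0.011, -0.0024 and 0.165, and those of differently numbered libraries at -0.123 to 0.114. With 3 libraries per group this check cannot exclude pairing. With a replicate block, genes changed numbered 1161, 0 of the 8 genes rose, 0 fell, and signalling genes numbered 5.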
